A study of Mus musculus with 4 samples.

Results

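Genes for ion, acid-base and zinc transport were examined in endothelial cells (ECs) sorted from the dura mater and from the brain parenchyma. They were chosen by symbol, as every gene whose name begins with Slc4a, Slc8a, Slc9a, Slc12a, Slc20a, Slc24a, Slc26a, Slc30a, Slc39a, Atp1a, Atp1b, Atp2a, Atp2b or Atp2c followed by a digit. This gave 93 of the 23282 symbols listed. Of these, 3 encode proteins that bind a transporter and carry no ion themselves, namely Slc4a1ap, Slc9a3r1 and Slc9a3r2. Counts for the family as a whole include them.

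The study sequenced 2 libraries of dura mater ECs and 2 of brain ECs, all from C57BL/6J mice of 8 weeks of age, to ask how the ECs of the 2 tissues differ in expression. Per its methods, tissues were digested with enzymes and red cells were lysed. Brain cells alone were then enriched for CD31 on magnetic beads, and cells stained for CD31, CD45 and the red cell marker TER-119 were sorted as ECs. The gate itself is not given in the sources used here. Dura mater cells had no such bead step, so the enrichment and the tissue cannot be told apart. How many mice went into a library, and whether the libraries came from separate mice, is not given in the sources used here, so p-values measure the spread between these libraries, which may be technical.

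Ion pumps and carriers set the ionic composition on both sides of the endothelium. The sodium-potassium pump, built from an Atp1a catalytic subunit and an Atp1b subunit, spends ATP to keep sodium low inside the cell, and the sodium gradient then drives cotransporters and exchangers. The Atp2 pumps and the sodium-calcium exchangers remove calcium from the cytosol. The Slc4a and Slc26a carriers move bicarbonate and other anions, the Slc9a carriers exchange sodium for protons, and the Slc12a family moves chloride with sodium or potassium. Zinc is handled by opposed families: Slc30a carriers (ZnT) take zinc out of the cytosol, and Slc39a carriers (ZIP) bring it in. Brain endothelium, with its tight junctions, is known for moving salt, water and metals through such carriers and not between the cells.

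Libraries held between 13518973 and 16096203 counts, and the transporter genes took 0.763% and 0.749% of the counts in the brain against 0.689% and 0.646% in the dura. The 95% Wilson intervals ran from 0.758 to 0.767 and from 0.745 to 0.754 for brain ECs, and from 0.685 to 0.694 and from 0.642 to 0.650 for dura mater ECs, and cover counting error only. A count of 0 allowed a level of up to 0.184 to 0.227 CPM, where CPM are counts relative to the library size after TMM scaling. All 10 EC markers examined were counted, and together they took, per library total, 10550 and 12410 CPM in the brain against 7797 and 9607 in the dura. Summed markers of some other cells lay apart between the tissues. Erythroid genes summed to 18050 and 24610 CPM in brain ECs against 1484 and 772.5 in dura mater ECs, with 5 of 7 counted and Slc4a1 among those at 0 in every library. Choroid plexus genes summed to 0.0691 and 3.26 in brain ECs against 1471 and 837.8 in dura mater ECs, nearly all of it Ttr, while fibroblast genes summed to 7.40 and 48.6 against 334.7 and 358.9. Astrocyte genes gave 51.9 and 7.89 in the brain against 433.8 and 163 in the dura, with Aqp4 at 0. Most of each astrocyte sum was Gja1, with 743 and 103 counts in the brain against 3641 and 2460 in the dura. Mural markers (568.3 and 996.6 against 931.1 and 514.7), neuron markers (142 to 162.3 in all libraries, Gad1 at 0), leukocyte markers (0.829 and 47.6 against 49.8 and 28.3) and oligodendrocyte markers (102.3 and 0.290 against 124.5 and 25.0, Mag and Mobp at 0) overlapped or lay close. Most of the neuron sum was Stmn2, with 2042 and 2239 counts in the brain against 1887 and 2473 in the dura. Of the other neuron markers, Tubb3 had 10 and 2 against 111 and 77, Syt1 was counted mainly in dura mater replicate 1, and Rbfox3 had 1 count. The part of these other cell types in the results below was not tested, and in such bulk samples fewer cells of a type cannot be told apart from less RNA per cell.

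The 2 genes with the smallest p-values both encode zinc carriers and had lower counts in dura mater ECs: Slc30a1, the exporter ZnT1 of the plasma membrane, and Slc39a10, the importer ZIP10. Slc30a1 lies on the forward strand at chr1:191906767-191913247 and Slc39a10 on the reverse strand at chr1:46807544-46892852 (GRCm38). Slc30a1 is a known target of the zinc-sensing factor MTF-1, which binds metal response elements, so the bases before the first position of each gene in the RefSeq table (GRCm38.p6) were searched for the core of that element, TGCACNC or TGCGCNC, on both strands. The 250 bases before the RefSeq start are shown 5′ to 3′ along the gene, with a match in capitals, for Slc30a1 (chr1:191906531-191906780, forward strand) and for the more distant of 2 listed starts of Slc39a10 (chr1:46925777-46926026, reverse strand).
Slc30a1: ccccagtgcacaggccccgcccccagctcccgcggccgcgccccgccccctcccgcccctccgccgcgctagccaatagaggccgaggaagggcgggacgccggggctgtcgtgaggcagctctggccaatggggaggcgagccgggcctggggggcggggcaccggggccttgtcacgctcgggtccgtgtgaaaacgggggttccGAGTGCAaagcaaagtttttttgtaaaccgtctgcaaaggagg
Slc39a10: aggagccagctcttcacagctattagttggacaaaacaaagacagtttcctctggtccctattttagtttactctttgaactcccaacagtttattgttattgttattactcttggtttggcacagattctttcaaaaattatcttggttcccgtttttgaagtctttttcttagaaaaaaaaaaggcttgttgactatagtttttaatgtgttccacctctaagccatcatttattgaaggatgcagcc
The Slc30a1 window held 1 match, on the opposite strand and beginning 43 bases before the RefSeq start. The end of this window lies inside the span of Slc30a1 given above, so the match is nearer to the beginning of that span. The Slc39a10 windows held 0 matches, both the one shown and that of the second start (chr1:46853619-46853868). The window shown lies outside the span of Slc39a10 given above, and that of the second start lies inside it. The bases just before that span were not searched. Such a core was present in 7032 of 32851 windows of this length (21.4%), in 2510 of the 7142 genes tested that have a window (35.1%) and in 16 of the 35 transporter genes tested that have one (45.7%). A match only says that these letters are present, and no match only that they are not in this window.

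Of the 93 genes, 24 were at 0 in every library, 69 had at least 1 count, and 47 had enough counts to be tested with edgeR's quasi-likelihood test. The test called 0 of the 47 at an adjusted p under 0.05, where 0.610% of the 9347 genes tested were called, 0.428% higher and 0.182% lower. At an unadjusted p under 0.05 it found 6 of them, 4 higher and 2 lower in dura mater ECs, while 10% of all genes tested passed that limit, 7.04% higher and 2.97% lower. The tissues did not overlap for 17 of the 47 (36.2%), 11 higher and 6 lower in dura mater ECs, against 43.1% of all genes tested, 26.2% higher and 16.9% lower. The log2 fold change had a median of 0.09 over the 47 genes and of -0.01 over all genes tested. By these measures the transporter genes did not stand out from the other genes in either direction, and their median standard error (SE), 1.76 on the log2 scale, was large. Other tests called more: 5 of the 47 with DESeq2, where 8.67% of all genes were called, and 2 with limma-voom, where 0.856% were. Within edgeR, the newer dispersion estimate called 3 (3.27% of all genes), a fit without a filter on low counts 3 (2.39%) and a replicate block 3 (2.40%). Stricter filters of at least 10 counts in every library or 64 in both libraries of a tissue left 2 calls each (2.95% and 0.947%), and RLE scaling, library size alone and thinning left 0 (0.567%, 0.621% and 0.609%). DESeq2 on all symbols called 8 of 69 (9.22%).

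**Figure D1:**
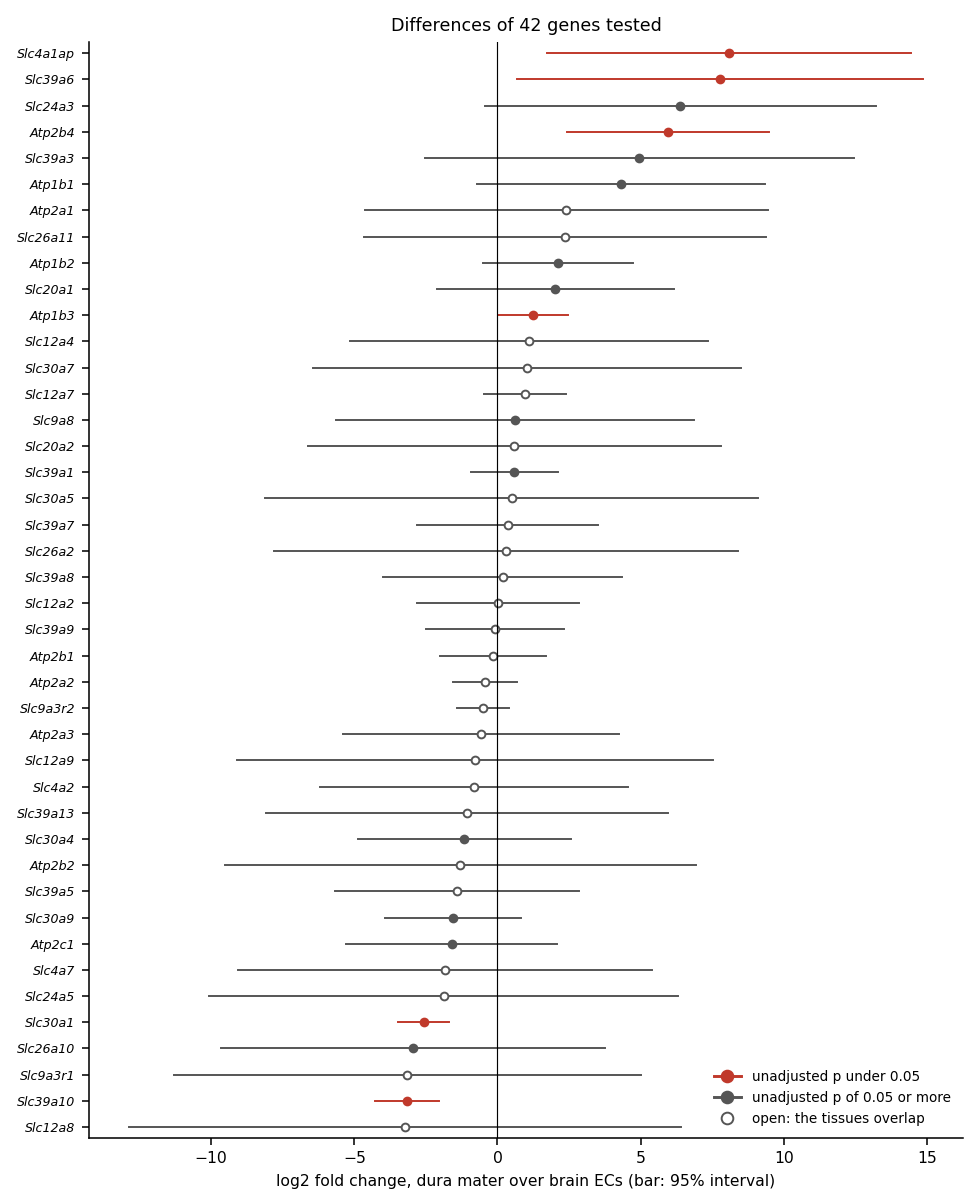
Log2 fold change (dura mater over brain ECs) of 42 of the 47 genes tested, with its 95% interval as a bar. The 6 genes with an unadjusted p under 0.05 are in red, filled points mark the 17 genes whose tissues do not overlap, and intervals are narrowest for genes with high counts in all libraries, such as Slc30a1 and Atp2a2.

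Counts agreed poorly between libraries of a tissue for many of these genes. Of the 41 transporter genes with at least 64 counts in a brain EC library, 12 had 7 or fewer in the other (29.3%), as did 31.3% of all symbols with such a count. In dura mater ECs this held for 21 of 57 (36.8%) against 30.7% of all symbols. Altogether 59 transporter genes reached 64 counts in some library. Of these, 24 did so in all 4 libraries, 7 in 3, 12 in 2 and 16 in 1 library only, and 11 of those 16 reached it only in dura mater replicate 2, the deepest library. That library alone held 18.6% of the 59 genes, against 13.3% of the 11051 symbols that reached 64 counts somewhere.

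**Figure D2:**
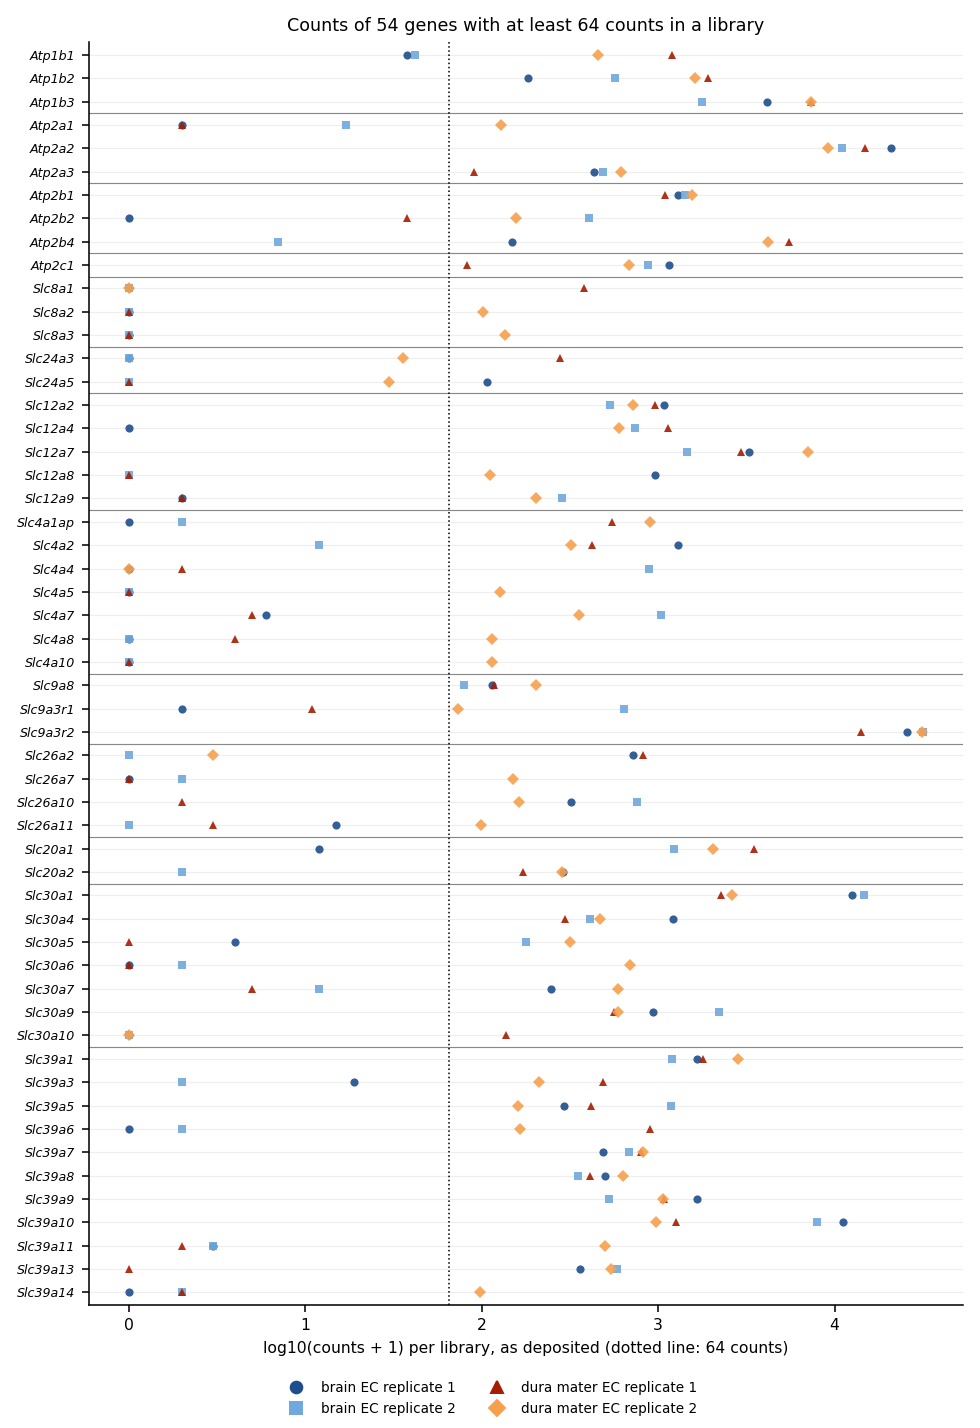
Counts as deposited, as log10(counts + 1), of 54 of the 59 transporter genes with at least 64 counts in a library, grouped by family, with 1 symbol per library. Slc30a1 and Slc39a10 sit to the right in brain ECs and Atp1b1 to Atp1b3 to the right in dura mater ECs, while genes such as Slc8a1, Slc30a6 and Slc4a4 reach the dotted line at 64 counts in 1 library alone.

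For the zinc exporter Slc30a1, the brain libraries held 12499 and 14636 counts and those of the dura 2279 and 2616. Both brain libraries were above both dura mater libraries, and replicates lay close together. The level was 984.3 ± 172.6 CPM (SD, n = 2) in the brain against 165.1 ± 6.86 CPM in the dura, a 5.96-fold lower level. On the log2 scale this was a difference of -2.57 (SE 0.37, unadjusted p = 0.000339 and adjusted p = 0.0537 in edgeR). The zinc importer Slc39a10 held 11221 and 7960 counts in the brain against 1259 and 967 in the dura, again with no overlap. Its level was 687.9 ± 121.9 CPM against 76.6 ± 24.5 CPM, or 8.97-fold lower (log2 fold change -3.17, SE 0.46, unadjusted p = 0.000387 and adjusted p = 0.0544 in edgeR). They ranked 59th and 65th of the 9347 genes by p, just beyond the limit of an adjusted p of 0.05. Both passed that limit with DESeq2, with limma-voom (adjusted p = 0.0199 for Slc30a1 and 0.0288 for Slc39a10) and with the replicate number as a block in edgeR (adjusted p = 0.000929 and 0.000392), though the numbers are not shown to pair the libraries. Over all 17 alternatives the adjusted p ranged from 1.19e-07 to 0.0849 for Slc30a1 and from 1.52e-08 to 0.0781 for Slc39a10, and the log2 fold changes stayed between -2.79 and -2.44 and between -3.68 and -2.89. An annotated antisense transcript, 1700034H15Rik, covers 8.92% of the exons of Slc30a1. Erythroid markers were also higher in both brain libraries, and their part in these differences was not tested.

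**Figure D3:**
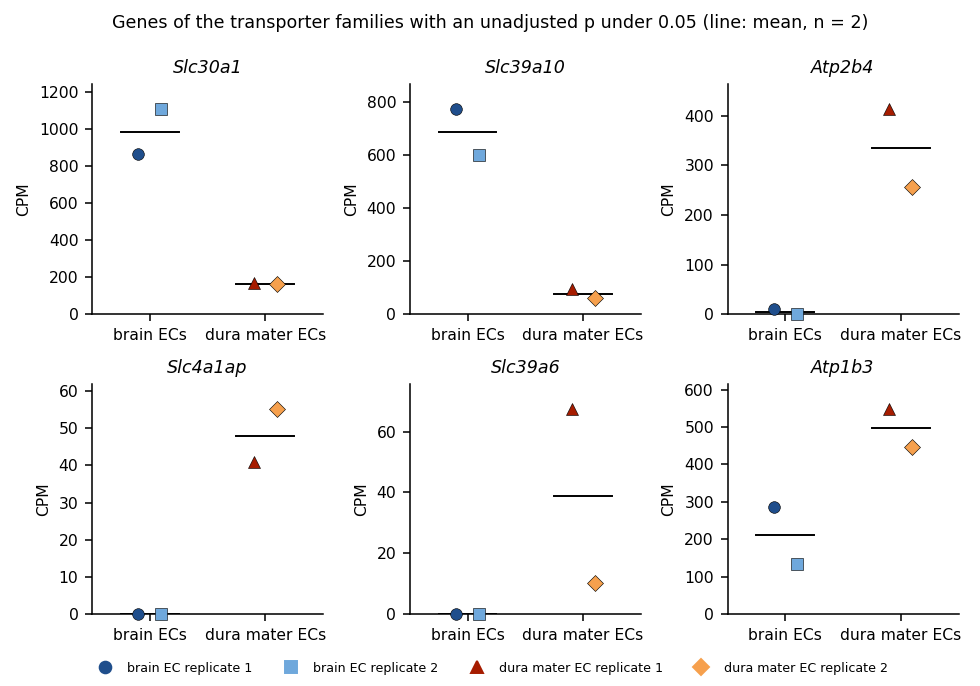
CPM in each library of the 6 genes with an unadjusted p under 0.05, 1 panel per gene with its own scale from 0, and a line at the mean of the 2 libraries of a tissue. Slc30a1 and Slc39a10 are higher in both brain libraries, and Atp2b4, Slc4a1ap, Slc39a6 and Atp1b3 in both dura mater libraries, with Slc39a6 far apart between the dura mater libraries.

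**Figure D4:**
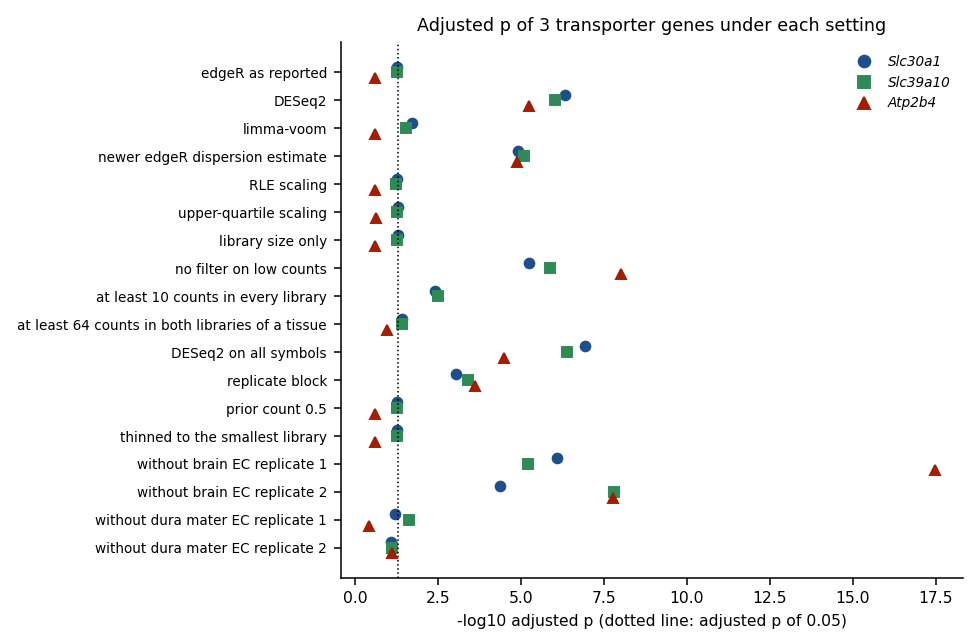
Adjusted p, as -log10, of Slc30a1, Slc39a10 and Atp2b4 under each test, scaling, filter or set of libraries, with a dotted line at an adjusted p of 0.05. The alternatives reuse the same libraries and are not separate experiments. A prior count of 0.5 cannot change the adjusted p, and DESeq2 on all symbols was added after seeing the data. Slc30a1 passes in 10 and Slc39a10 in 11 of 17 alternatives and Atp2b4 in 7 of 16, and with edgeR as reported none of them passes.

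Among the other zinc carriers, the importer Slc39a6 (ZIP6) had 0 and 1 counts in the brain against 905 and 165 in the dura. Both dura mater libraries were above the brain libraries but lay far apart from each other, and edgeR gave a log2 fold change of 7.78 (SE 2.93, adjusted p = 0.466). With a single brain count, the ratio of the tissues was 997.6 with a 95% counting interval of 178.7 to 39440, and DESeq2 called the gene. The importer Slc39a3 (ZIP3) counted 18 and 1 in the brain against 486 and 211 in the dura (log2 fold change 4.95, SE 3.10, adjusted p = 0.711 in edgeR). Slc39a1 (ZIP1), a broadly expressed importer, counted 1656 and 1197 against 1802 and 2832, which do not overlap in CPM either (log2 fold change 0.59, SE 0.63, adjusted p = 0.987 in edgeR). So the tissues did not overlap for 4 of the 9 Slc39a genes tested (44.4%), close to the 43.1% of all genes tested, with 3 higher in the dura (26.2% of all genes) and Slc39a10 lower (16.9%).

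On the exporter side, 3 of the 5 Slc30a genes tested had no overlap, all 3 lower in dura mater ECs, as were 16.9% of all genes tested, and 5 genes are too few to set the family apart. Beside Slc30a1 these were Slc30a9, a zinc transporter of mitochondria, with 931 and 2202 counts in the brain against 559 and 595 in the dura (log2 fold change -1.56, SE 0.98, adjusted p = 0.715 in edgeR), and Slc30a4 (ZnT4), a transporter of endosomal vesicles, with 1209 and 410 against 296 and 469 (log2 fold change -1.17, SE 1.54). Neither passed the test, and for Slc30a4 the lower brain count and the higher dura mater count separate only after scaling to library size. The transporters of the secretory pathway, Slc30a5, Slc30a6 and Slc30a7, varied within tissues. Slc30a5 had 3 and 178 counts in the brain against 0 and 315 in the dura, Slc30a7 had 246 and 11 against 4 and 594, and Slc30a6 had 0 and 1 against 0 and 696. Slc30a10, an exporter of manganese, was counted in dura mater replicate 1 alone, with 136 counts.

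Slc39a8 (ZIP8), which carries zinc and manganese, was counted evenly, with 501 and 351 counts in the brain against 408 and 631 in the dura (log2 fold change 0.18, 95% interval -3.99 to 4.34 in edgeR). Its relative Slc39a14 (ZIP14) reached 97 counts in dura mater replicate 2 and no more than 1 elsewhere. Slc39a7 (ZIP7), which releases zinc from the endoplasmic reticulum, held 484 and 681 counts against 796 and 816, and shares 80.6% of its exon length with an overlapping transcript on the same strand, Gm20427, so reads of the 2 may be mixed. Slc39a9 held 526 to 1671 counts and Slc39a5 160 to 1177, both with overlapping tissues. Slc39a13 held 360 and 584 counts in the brain against 0 and 539 in the dura. Slc39a11 had 502 counts in dura mater replicate 2 and at most 2 elsewhere, and Slc39a4 56 there and at most 2 elsewhere. Slc39a2 and Slc30a3, the exporter of synaptic vesicles, never passed 3 counts, and Slc39a12, Slc30a2 and Slc30a8 were at 0.

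Genes that buffer or sense zinc were taken from a list of 5 partners, of which edgeR tested 3 and called 0. Metallothioneins bind zinc in the cytosol. Mt1 held 6903 and 10327 counts in the brain against 7133 and 4084 in the dura (log2 fold change -0.68, SE 0.50, adjusted p = 0.836 in edgeR), and Mt2 held 10370 and 4570 against 11850 and 5551 (log2 fold change 0.21, SE 0.58). The tissues overlapped for both. Mtf1, the gene of the factor MTF-1, had 9 and 2 counts in the brain against 14 and 651 in the dura, so its mean rests on dura mater replicate 2. Mt3 had 227 counts in dura mater replicate 1 and at most 1 elsewhere, and Mt4 at most 6 in any library, and neither was tested.

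The Atp1b subunits, which the sodium-potassium pump needs to reach the membrane, showed no overlap for any of the 3 genes tested, each higher in dura mater ECs, as were 26.2% of all genes tested. With 3 genes nothing particular to the family can be read from this. Atp1b3 had 4159 and 1769 counts in the brain against 7353 and 7309 in the dura, or 210.3 ± 108.3 against 498 ± 71.1 CPM (log2 fold change 1.24, SE 0.50, unadjusted p = 0.0459 and adjusted p = 0.466 in edgeR). It passed without brain replicate 1 (adjusted p = 0.0245) and under no other alternative. Atp1b1 had 37 and 41 counts in the brain against 1205 and 453 in the dura, 2.83 ± 0.387 against 58.8 ± 43.9 CPM (log2 fold change 4.31, SE 2.08, adjusted p = 0.517 in edgeR). Among the alternatives, only DESeq2 on all symbols, added after seeing the data, called Atp1b1 (adjusted p = 0.0292). Atp1b2 had 183 and 568 counts against 1910 and 1621 (log2 fold change 2.12, SE 1.08, adjusted p = 0.554 in edgeR). Both dura mater libraries thus lay above both brain libraries in each case, while replicates of Atp1b1 differed widely in the dura mater and those of Atp1b2 in the brain. Atp1b4 was at 0, as was Atp1a4, a pump subunit of sperm. The exons of Nme7, on the opposite strand, cover 18.7% of those of Atp1b1, and the summed choroid plexus, astrocyte and fibroblast markers were also higher in both dura mater libraries. Of the choroid plexus list this held for Ttr alone, and in the other lists for some genes only, with Lum and Pdgfra at 4 counts or fewer and Gfap and Aldoc high in dura mater replicate 1 alone. Their part in the Atp1b difference was not tested.

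Proteins of the Fxyd family adjust the pump. Of 7 listed, 3 were tested and 0 were called. Fxyd5 held 2788 and 4012 counts in the brain against 2895 and 6250 in the dura (log2 fold change 0.27, SE 0.51), and Fxyd1 held 301 and 643 against 485 and 622. Fxyd6 had 0 and 2017 counts in the brain against 739 and 1466 in the dura.

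Among calcium transporters, Atp2b4, a calcium pump of the plasma membrane (PMCA4), had 147 and 6 counts in the brain against 5543 and 4197 in the dura. Dura mater libraries lay far above brain libraries, at 335.2 ± 110.5 against 5.30 ± 6.85 CPM, a 61.6-fold higher fitted level (log2 fold change 5.94, SE 1.46, unadjusted p = 0.00594 and adjusted p = 0.251 in edgeR). It lies on the reverse strand at chr1:133699457-133801041. DESeq2, the replicate block, a newer dispersion estimate of edgeR and the fit without a filter called it, as did the fits without either brain replicate, and over the alternatives its log2 fold change ran from 4.97 to 9.11 and its adjusted p from 3.30e-18 to 0.384. The related pump Atp2b1 (PMCA1), found in most cells, had 1297 and 1427 counts in the brain against 1090 and 1556 in the dura (log2 fold change -0.16, 95% interval -2.01 to 1.69). Atp2b2 varied within the brain, with 0 and 405 counts against 37 and 156, and Atp2b3 had a single count. In these libraries, then, PMCA1 overlapped between the tissues and PMCA4 did not. The difference between the 2 pumps was not tested.

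Pumps that fill calcium stores overlapped or varied. Atp2a2 (SERCA2), the main pump of the endoplasmic reticulum, held 21022 and 10983 counts in the brain against 14848 and 9178 in the dura (log2 fold change -0.45, 95% interval -1.57 to 0.67, adjusted p = 0.974 in edgeR). Atp2a3 (SERCA3) held 435 and 487 against 90 and 615, and Atp2a1 (SERCA1), the muscle form, 1 and 16 against 1 and 128. Skeletal muscle markers summed to at most 3.98 CPM in any library, with Myh1 at 0. That highest sum was Acta1, with 64 counts in dura mater replicate 2, the library with 128 counts of Atp2a1, and at most 6 elsewhere. The part of muscle cells was not tested. Atp2c1, a pump of the Golgi apparatus for calcium and manganese, had 1151 and 873 counts in the brain against 82 and 680 in the dura (log2 fold change -1.60, SE 1.53, adjusted p = 0.959 in edgeR). Its tissues did not overlap, but the dura mater libraries were 6.12 and 41.6 CPM, so the size of the gap depends on which is taken. Without dura mater replicate 1 or 2 the log2 fold change was between -0.94 and -3.56. Aste1, on the opposite strand, covers 18.9% of its exons. Atp2c2 was at 0.

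Sodium-calcium exchangers were scarce. Slc24a3, an exchanger that also moves potassium, was at 0 in the brain and had 279 and 35 counts in the dura, at least 52.9-fold higher against a floor of 3 counts per library (adjusted p = 0.470 in edgeR). The bound rests largely on dura mater replicate 1, with 20.8 CPM against 2.14 CPM in replicate 2, and the fitted log2 fold change of 6.38 was 3.98 without replicate 1. Slc8a1 (NCX1) had 380 counts in dura mater replicate 1 and 0 elsewhere, and Slc8a2 and Slc8a3 had 101 and 135 in dura mater replicate 2 and 0 elsewhere. None of the 3 Slc8a genes passed the count filter of the main edgeR test. DESeq2 on all symbols, added after seeing the data, called Slc8a1, whose counts all come from dura mater replicate 1. Slc24a5 had 106 and 0 counts in the brain against 0 and 29 in the dura, and shares 39.5% of its exons with Myef2 on the opposite strand. Slc24a2 had 1 count, and Slc24a1 and Slc24a4 were at 0.

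From 13 genes of calcium store release and refilling, 8 were tested and 0 were called. Itpr3, an inositol trisphosphate receptor that lets calcium out of the endoplasmic reticulum, had 2121 and 3458 counts in the brain against 331 and 353 in the dura (203.9 ± 81.4 against 23.2 ± 2.16 CPM, log2 fold change -3.13, SE 0.76, unadjusted p = 0.00557 and adjusted p = 0.245 in edgeR). The dura mater libraries agreed closely and lay below both brain libraries. Itpr2 held 2202 and 545 against 929 and 920, and overlapped. The plasma membrane channel subunits Orai1 and Orai3, which refill the stores, had no overlap in CPM and smaller differences, with log2 fold changes of -0.58 (SE 0.68) and -1.45 (SE 1.83).

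For chloride cotransport, the tissues overlapped in all 6 Slc12a genes tested. Slc12a2 (NKCC1), which takes up sodium, potassium and chloride together, held 1076 and 531 counts in the brain against 964 and 719 in the dura (log2 fold change 0.02, 95% interval -2.80 to 2.83 in edgeR). Slc12a7 (KCC4), which lets potassium and chloride leave the cell, held 3261 and 1459 against 2955 and 7075 (log2 fold change 0.96, SE 0.59, adjusted p = 0.696 in edgeR), where dura mater replicate 2 stood above the rest. Slc12a4 (KCC1) was at 0 in brain replicate 1 and had 743 counts in brain replicate 2 and 1131 and 596 in dura mater ECs. It was called only without brain replicate 2, the library that holds its brain counts. Slc12a8 had 965 and 0 counts against 0 and 111, Slc12a9 1 and 284 against 1 and 202, and Slc12a5, the neuronal cotransporter, 39 counts in brain replicate 1 alone. Slc12a1 and Slc12a3, the cotransporters of the kidney, were at 0.

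WNK kinases act on these cotransporters through the kinases Stk39 (SPAK) and Oxsr1 (OSR1). Of 10 listed genes, 7 were tested, 0 were called and 2 had an unadjusted p under 0.05. Wnk2 had 924 and 909 counts in the brain against 3 and 1 in the dura, with replicates in close agreement (66.2 ± 3.51 against 0.142 ± 0.115 CPM, log2 fold change -7.88, SE 2.23, adjusted p = 0.328 in edgeR). Stk39 had 1 and 0 counts in the brain against 1477 and 112 in the dura, a ratio of 1481 with a 95% counting interval of 265.5 to 58550 (adjusted p = 0.416 in edgeR). Its close relative Oxsr1 had 381 and 1090 against 0 and 76 (log2 fold change -4.46, SE 2.96, adjusted p = 0.760 in edgeR). The 2 kinases thus lay apart in opposite directions, neither past the test. Wnk1 held 3161 and 2705 counts in the brain against 2938 and 1704 in the dura, and overlapped.

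**Figure D5:**
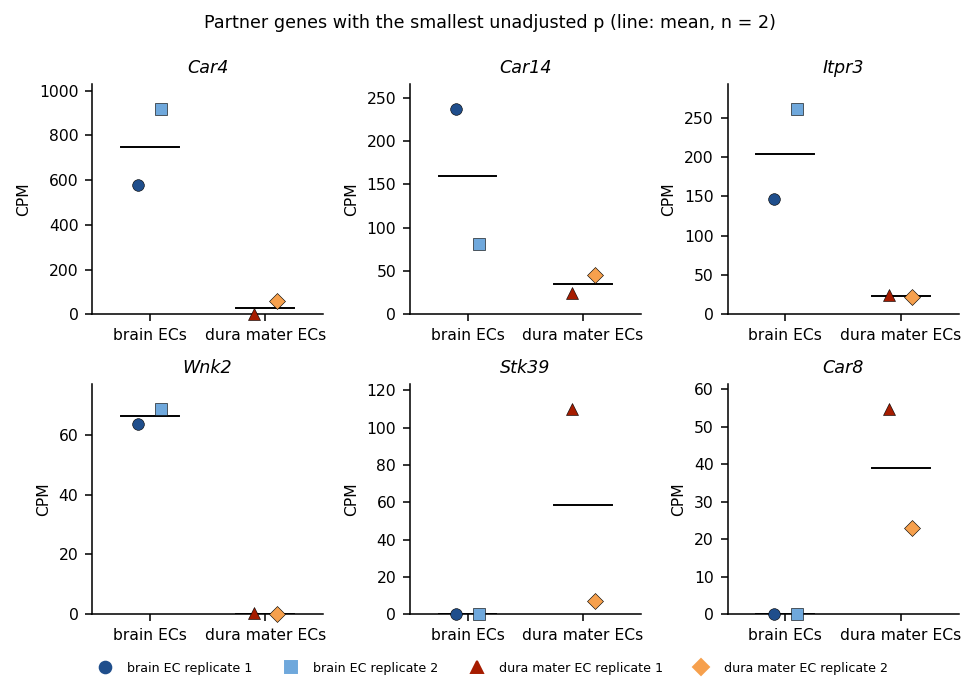
CPM in each library of 6 partner genes, chosen as those with the smallest unadjusted p, 1 panel per gene with its own scale from 0, and a line at the mean of the 2 libraries of a tissue. Car4, Car14, Itpr3 and Wnk2 are higher in both brain libraries, and Stk39 and Car8 in both dura mater libraries.

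Carriers of bicarbonate and other anions gave few counts that agreed between replicates. Slc4a2 (AE2), which exchanges chloride for bicarbonate, had 1295 and 11 counts in the brain against 420 and 319 in the dura. Its log2 fold change was -0.82 over all libraries, 4.69 without brain replicate 1 and 1.39 with the replicate block, so no direction can be read from it. Fastk, on the opposite strand, covers 13.7% of its exons. Slc4a7 (NBCn1), a sodium-bicarbonate cotransporter, was counted mainly in the replicate 2 libraries, with 5 and 1040 against 4 and 354, and Slc4a4 (NBCe1) in brain replicate 2 alone, with 893 counts, where it was called only once the other brain library was left out or with DESeq2 on all symbols. Slc4a5, Slc4a8 and Slc4a10 reached 126, 113 and 113 counts in dura mater replicate 2 and at most 3 elsewhere. Slc4a9 had 1 count, and Slc4a1, the anion exchanger of red cells, Slc4a3 and Slc4a11 were at 0, Slc4a1 also in the brain libraries that held the erythroid transcripts.

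Slc4a1ap, whose product kanadaptin is named after an anion exchanger and is not a carrier, had 0 and 1 counts in the brain against 548 and 901 in the dura (0.0378 ± 0.0535 against 48.0 ± 10.1 CPM). The dura mater libraries lay close together, both brain libraries lay at or under the floor, and the ratio was 1351 with a 95% counting interval of 242.1 to 53400 (log2 fold change 8.09, SE 2.63, unadjusted p = 0.0206 and adjusted p = 0.423 in edgeR). DESeq2 called it, as did edgeR without brain replicate 2 (adjusted p = 0.0470).

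Carbonic anhydrases make the bicarbonate and protons that these carriers move. Of 16 listed genes, 7 were tested and 0 were called. Car4, an enzyme anchored to the outer face of brain capillaries, had 8383 and 12149 counts in the brain against 1 and 962 in the dura, or 748.4 ± 240.4 against 29.5 ± 41.6 CPM (log2 fold change -4.66, SE 2.03, adjusted p = 0.469 in edgeR). It was called with any 1 of the 4 libraries left out, with the replicate block, without a filter and with the newer dispersion estimate. Car14, also a membrane enzyme, had 3432 and 1073 counts against 326 and 733 (log2 fold change -2.19, SE 0.93, adjusted p = 0.466 in edgeR). Car15, another membrane-bound form, overlapped, with 326 and 910 against 445 and 0 (log2 fold change -1.45, SE 2.84). Car8, a relative without enzyme activity, had 0 and 1 counts in the brain against 734 and 376 in the dura, and the mitochondrial Car5b had 2 and 4 against 416 and 93.

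Sodium-proton exchangers set the pH of the cytosol and of organelles. Slc9a8, of the Golgi apparatus, held 113 and 78 counts in the brain against 116 and 203 in the dura, with no overlap in CPM (log2 fold change 0.61, SE 2.59). Slc9a4 and Slc9a9 each had 56 counts in brain replicate 1 and at most 1 elsewhere, and Slc9a2, Slc9a3, Slc9a5 and Slc9a7 were at 0. The partner Chp1, which binds sodium-proton exchangers, held 3131 and 1657 counts in the brain against 1612 and 3809 in the dura, and 0 of the 3 adaptor genes tested was called.

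Slc9a3r2, which encodes the scaffold NHERF2 and not a carrier, held 25904 and 31900 counts in the brain against 14112 and 31249 in the dura. With 2099 ± 441.4 and 1483 ± 609.4 CPM the tissues overlapped (log2 fold change -0.50, SE 0.38, adjusted p = 0.860 in edgeR). The related scaffold Slc9a3r1 had 1 and 640 against 10 and 73.

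The phosphate importer Slc20a1 (PiT1) had 11 and 1235 counts in the brain against 3474 and 2040 in the dura, with no overlap (log2 fold change 2.03, SE 1.71, adjusted p = 0.919 in edgeR). Without brain replicate 2 its log2 fold change was 7.70 (adjusted p = 2.99e-09), which rests on the 11 counts of brain replicate 1. It was 1.01 without brain replicate 1 (adjusted p = 0.610), 1.26 without dura mater replicate 1 and 2.43 without dura mater replicate 2, and passed in none of these 3 fits. Slc20a2 (PiT2) had 288 and 1 counts against 171 and 285. In the Slc26a family, Slc26a10 had 322 and 759 counts in the brain against 1 and 162 in the dura (log2 fold change -2.96, SE 2.77, adjusted p = 0.952 in edgeR), with 17.8% of its exons covered by B4galnt1 on the opposite strand. Its log2 fold change was -7.51 without dura mater replicate 2, which holds nearly all of its dura mater counts, and -2.13 to -3.57 with another library left out. The sulfate carrier Slc26a2 was counted in the replicate 1 libraries, with 723 and 0 against 820 and 2. Slc26a11 reached 98 and Slc26a7 150 counts in dura mater replicate 2 and at most 14 elsewhere. Slc26a6 had 1 count and Slc26a1, Slc26a3, Slc26a4, Slc26a5, Slc26a8 and Slc26a9 were at 0.

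Over all 56 partner genes, 10 were at 0 in every library, 31 were tested, edgeR called 0, and 4 had an unadjusted p under 0.05, 2 in each direction, where 10% of all genes tested did. DESeq2 called 4 of the 31, Wnk2, Stk39, Car8 and Itpr3, where it called 8.67% of all genes. The tissues did not overlap for 11 of the 31 (35.5%), 4 higher and 7 lower in dura mater ECs, against 43.1% of all genes tested (26.2% higher, 16.9% lower).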

How the data were processed

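RNA of sorted ECs was sequenced in 2 libraries of brain and 2 of dura mater, grouped by sample title. A QuantSeq kit, which primes at the 3′ end of transcripts, was used, with a NextSeq sequencer. The authors deposited raw counts per gene symbol, neither scaled nor filtered. The methods of the study name TopHat and cufflinks, and the submitters' processing notes name Bowtie2, edgeR and mm10; how alignments became counts, the annotation and the use of strand are not given in the sources used here. A gene and its antisense partner can therefore not be told apart. The exon overlaps given are shares of the whole exon length, and their place relative to the 3′ end was not examined.

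Counts were tested in R 4.3.3 with edgeR 4.0.16 (quasi-likelihood, older dispersion estimate, TMM scaling, filterByExpr, tissue as the only term, two-sided, Benjamini-Hochberg over the 9347 genes tested, prior count of 2). It replaces cufflinks, whose test works on alignments. The SE is the log2 fold change divided by the root of its F statistic. The common biological coefficient of variation was 1.39, and totals of 13518973 to 16096203 counts set the precision. Chi-square per degree of freedom was 362.9 between the brain and 229.7 between the dura mater libraries, so no library is a copy of another. A fold against 0 counts was computed against 3 counts per library. Intervals of ratios are exact binomial. The fits were run on simulated data as a check of the code. Its criterion was set at a spread far below that of these data, so missed and false calls at this spread are not given.

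Members, partner lists and marker lists were chosen with earlier results of these data known, and no set test was run. Named by rule were, per direction, the 6 genes with the largest log2 fold change among those without overlap and with a mean of at least 10 CPM; the gene of smallest p in each family; a set of genes of known role; and at most 4 partners per list. Other genes were named after their values were seen, to account for the members; some are not reported here. Alternatives were DESeq2 1.42.0, limma-voom (limma 3.58.1), the newer edgeR dispersion estimate, other scalings, other filters, a replicate block, an adjusted p of 0.01, a prior count of 0.5, thinning to 13518973 counts and each library left out; DESeq2 on all symbols was added after seeing the data. Positions and exon overlaps are from GENCODE M21 (GRCm38), which held all 93 symbols and 22230 of 23282 in all.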

Additional observations from a re-analysis of the deposited data

How the results depend on the processing

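With edgeR as reported, 0 of the 47 transporter genes tested were called, and with the other scalings, thinning or an adjusted p of 0.01 the count was 0 as well. It was 5 with DESeq2 (3 higher, 2 lower), 2 with limma-voom, 3 with the newer dispersion estimate, 3 of 69 without a filter on low counts, 2 of 27 with at least 10 counts in every library, 2 of 35 with at least 64 counts in both libraries of a tissue, and 8 of 69 with DESeq2 on all symbols, an alternative chosen after seeing the data. It ran from 0 (without dura mater replicate 2) to 6 (without brain replicate 2) as each library was left out, over 53 to 62 genes tested. Slc30a1 and Slc39a10 were called, both lower, in each of these fits with a call except that without dura mater replicate 1, which called Slc39a10 alone. The count at an unadjusted p under 0.05, 6 as reported, was 12 with DESeq2 on all symbols and ran from 3 to 10 with a library left out. Of the partner genes, 0 were called as reported, 4 with DESeq2, 2 with the newer dispersion estimate, 1 without a filter, 7 with DESeq2 on all symbols and 1 to 4 with a library left out. The median log2 fold change of the transporter genes was 0.3315 without a filter and ran from -0.2993 to 1.2278 with a library left out, as the median of all genes moved from -0.1916 to 1.0304.

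The replicate numbers are not shown to pair the libraries (same-numbered libraries deviated from their tissue means with a correlation of -0.02). With the replicate block, 3 transporter genes (Slc30a1, Slc39a10 and Atp2b4) and 1 partner gene were called, and Slc4a2 had a log2 fold change of 1.3934.

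Signs turned for genes with small or uneven differences, none of them called, and the cause was not tested. Slc12a2 was at -0.0431 with DESeq2, -0.0653 with DESeq2 on all symbols, -0.0248 with limma-voom, -0.0119 with the newer dispersion estimate, -0.0429 with RLE scaling, -0.0219 without a filter and -0.0277 with at least 64 counts, and Slc4a2 at 1.3231 with limma-voom. With a library left out, log2 fold changes ran from -0.5153 to 0.4908 for Slc12a2, -1.8613 to 4.6855 for Slc4a2, -6.4993 to 4.4445 for Slc4a7, -0.4613 to 6.1164 for Slc20a2, -2.3107 to 0.0313 for Atp2a3, -0.0687 to 0.3269 for Slc39a8 and -6.6888 to 7.8114 for Slc26a2. A fit with 1 library left out assumes that the lone library of its tissue varies like the other tissue's.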
